A study of Homo sapiens with 8 samples.

Results

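The genes described here are 9 members of the BCL2 family, which sets whether a cell survives or dies through its mitochondria. They are the survival genes BCL2, BCL2L1, BCL2L2 and MCL1, the effector gene BAK1, and the BH3-only genes BID, BAD, BCL2L11 and BMF. Each was found as the row of the deposited gene table that carries its symbol, which gave all 9 of 25945 genes listed, and all 9 had enough reads to be tested among 14528 genes. RNA of MiaPaCa-2 cells, an established line from a human pancreatic carcinoma, was sequenced as poly-T purified mRNA 48 h after siRNA transfection. The BARD1 siRNA group held 4 knockdown libraries, and the control siRNA group held 4 libraries of wild-type cells given a scrambled siRNA labelled SCR. The labels number the libraries 1 to 4 in each group and do not say whether each was a culture of its own, and p-values here reflect the spread of these 8 samples alone, part of which may be technical.

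BCL2 family proteins meet at the outer mitochondrial membrane. The effectors BAK and BAX open the membrane and let cytochrome c out, which starts the caspases, and the survival proteins hold the effectors and the BH3-only proteins in check. BH3-only proteins pass on stress signals: they occupy the survival proteins or switch the effectors on. In many cancer cells, those of the pancreas included, BCL-XL (the main product of BCL2L1) and MCL1 are known survival factors. BARD1, the targeted gene, encodes the partner of BRCA1 in DNA repair by homologous recombination.

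BARD1 itself had 3.56, 2.24, 2.45 and 7.59 CPM (counts scaled to library depth, with TMM factors) in BARD1 siRNA libraries 1 to 4, against 26.9, 28.0, 26.9 and 20.8 CPM in control siRNA libraries 1 to 4. The groups did not overlap (log2 fold change -2.69, standard error SE 0.36, edgeR adjusted p = 0.00397; two-sided exact permutation p = 0.0286, the smallest that 4 against 4 allows). Total counts ran from 24458665 to 36212716 per library. The libraries numbered 4 stood apart from the others: 46.2% of all genes tested differed between them and the other 6 in edgeR with a term for the siRNA, and 4.44% of the reads of BARD1 siRNA library 4 and 3.26% of those of control siRNA library 4 were mitochondrial, against 0.695% to 2.02% elsewhere. Of the 6 carcinoma markers looked at, the keratins KRT8, KRT18 and KRT19 and the mesenchymal marker VIM had enough reads to be tested, and all 6 summed to 4616 to 6672 CPM in BARD1 siRNA libraries and 3911 to 4978 CPM in control siRNA libraries. VIM made up 1809 to 2043 CPM of this in BARD1 siRNA libraries and 1632 to 1769 CPM in control siRNA libraries, and the epithelial adhesion genes EPCAM and CDH1 were at or near 0. PTPRC and CD3E of the leukocyte list, PECAM1 of the endothelial list and all 3 acinar markers were at 0 in every library. The endothelial list as a whole summed to 6.74 to 10.2 CPM in BARD1 siRNA libraries and 3.68 to 5.18 CPM in control siRNA libraries, nearly all from CDH5, and the fibroblast list to at most 2.08 CPM in BARD1 siRNA libraries and 2.04 CPM in control siRNA libraries.

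The difference by BARD1 siRNA was largest for BCL2L1 and BCL2L11, a survival gene and a BH3-only gene, which were 1.54-fold and 1.52-fold higher in BARD1 siRNA libraries and higher in all 4 same-numbered pairs. In the comparison of all 8 libraries neither passed the threshold of 0.05 for the edgeR adjusted p, and 0 of 9 members did, while 5.05% of all genes tested passed it, 1.82% higher and 3.22% lower. At an unadjusted p under 0.05 these 2 of 9 members were counted, beside 18.9% of all genes, and DESeq2 called 2 of 9 members, beside 12.4% of all genes. With the replicate number as a block in the edgeR fit, BCL2L1 and BCL2L11 rose, 2 of 9 members (22.2%), and the other 7 did not pass. Beside this, 23.6% of all genes were called, 11% higher and 12.6% lower. The block rests mainly on number 4. Deviations of libraries numbered 1 to 3 correlated at 0.502 to 0.605 for the same number and at 0.378 to 0.522 for unlike numbers. They were taken from group means that include number 4, so they do not show a pairing among numbers 1 to 3. Leaving out both libraries numbered 4, BCL2L1, BCL2L11 and MCL1 rose, 3 of 9 members (33.3%), beside 30.4% of all genes called, 15% higher and 15.4% lower. In these 2 fits the share of members called was close to that of all genes called in either direction. Every member called rose, and the share of members was above that of all genes called higher. These shares rest on 2 and 3 of 9 members and were not tested. Upper-quartile scaling called the same 2 members (6.08% of all genes), and leaving out BARD1 siRNA library 4 alone did so too (16.9% of all genes). Leaving out any other of the 8 libraries called neither, and only 178 to 864 of the 14766 to 14985 genes tested in those fits. Testing with no filter on low counts called BCL2L1 (2.32% of all genes). Over the 9 members the median log2 fold change was 0.10 with 7 of 9 positive. Over all genes tested the median was 0.0088, with 7491 of 14528 positive. Among the 7 members, the confidence intervals of BCL2, BCL2L2, MCL1, BAK1 and BMF in the fit of all 8 libraries included 0. Whether the members were higher as a set was not tested. RNA from whole cultures cannot tell a change in the number of cells of a kind from a change in RNA per cell.

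**Figure D1:**
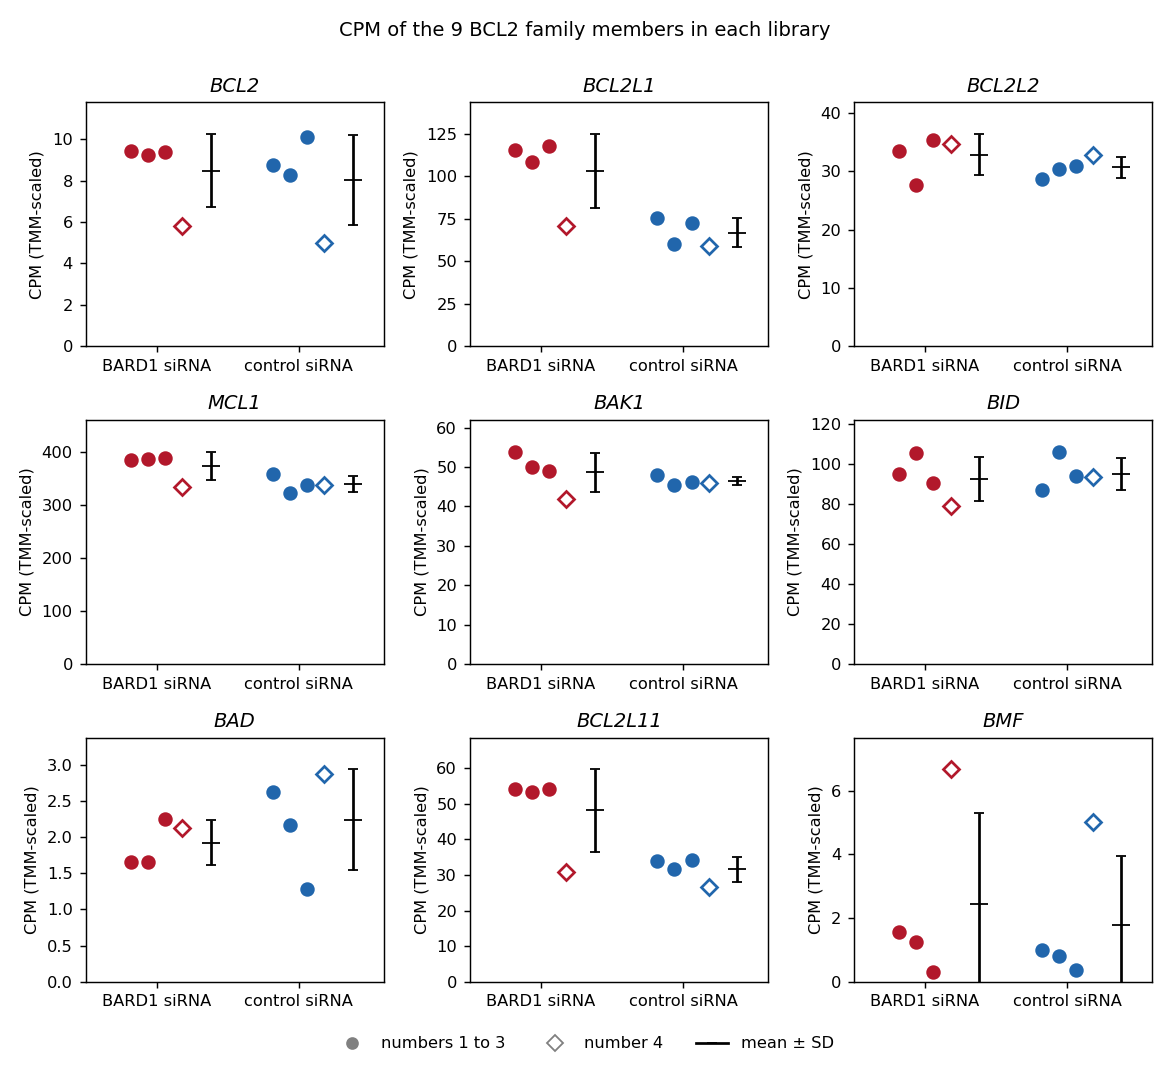
CPM (vertical axis, linear, one panel a gene) of the 9 members in the 4 BARD1 siRNA and 4 control siRNA libraries, with filled circles for numbers 1 to 3, open diamonds for number 4, and the mean ± SD beside each group. BCL2L1 and BCL2L11 sit higher in BARD1 siRNA libraries 1 to 3 than in any control siRNA library, while the diamonds for BMF stand above all other libraries; the lower ends of its SD bars fall below 0 and are not drawn.

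Per length, MCL1 was the most abundant member in both groups. It averaged 94.9 ± 2.84 FPKM (fragments per length of transcript and depth of library) in BARD1 siRNA libraries and 86.1 ± 4.97 FPKM in control siRNA libraries (SD, n = 4 each), and made up 44.0% of the summed FPKM of the 9 members in BARD1 siRNA libraries and 45.4% in control siRNA libraries. In BARD1 siRNA libraries the order went on with BCL2L1 at 39.2 ± 6.99 FPKM and BID at 37.1 ± 3.06 FPKM, whose ranges overlapped. In control siRNA libraries BID at 38.1 ± 3.20 FPKM stood above BCL2L1 at 25.5 ± 2.78 FPKM without overlap, and the range of BCL2L1 overlapped that of BAK1. BAK1 had 22.8 ± 1.57 FPKM in BARD1 siRNA libraries and 21.7 ± 0.850 FPKM in control siRNA libraries.

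The lower end of the order held BCL2L11, BCL2L2, BAD, BCL2 and BMF. BCL2L11 averaged 9.40 ± 1.95 FPKM in BARD1 siRNA libraries, where its range overlapped that of BCL2L2 at 9.13 ± 1.22 FPKM, and 6.18 ± 0.484 FPKM in control siRNA libraries, where it lay below BCL2L2 at 8.49 ± 0.767 FPKM without overlap. BCL2, the founding survival gene of the family, was among the least abundant, with 1.13 ± 0.196 FPKM in BARD1 siRNA libraries and 1.07 ± 0.261 FPKM in control siRNA libraries. BMF averaged 0.544 ± 0.663 FPKM in BARD1 siRNA libraries and 0.394 ± 0.491 FPKM in control siRNA libraries, and its range overlapped that of BCL2 in both. BAD lay just above BCL2, with 1.67 ± 0.314 FPKM in BARD1 siRNA libraries and 1.95 ± 0.655 FPKM in control siRNA libraries, and the ranges of BAD and BCL2 overlapped in control siRNA libraries only.

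The balance between the main survival genes differed by library. MCL1 had 2.22, 2.38, 2.19 and 3.12 times the FPKM of BCL2L1 in BARD1 siRNA libraries 1 to 4, against 3.16, 3.54, 3.09 and 3.80 times in control siRNA libraries 1 to 4. BARD1 siRNA library 4 lay within the range of the control siRNA libraries, and the other 3 BARD1 siRNA libraries below it. The ratio of BCL2L1 to BCL2L11, a survival gene over the BH3-only gene with the like difference, ran from 3.95 to 4.49 in BARD1 siRNA libraries and from 3.70 to 4.34 in control siRNA libraries, ranges that overlapped.

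**Figure D2:**
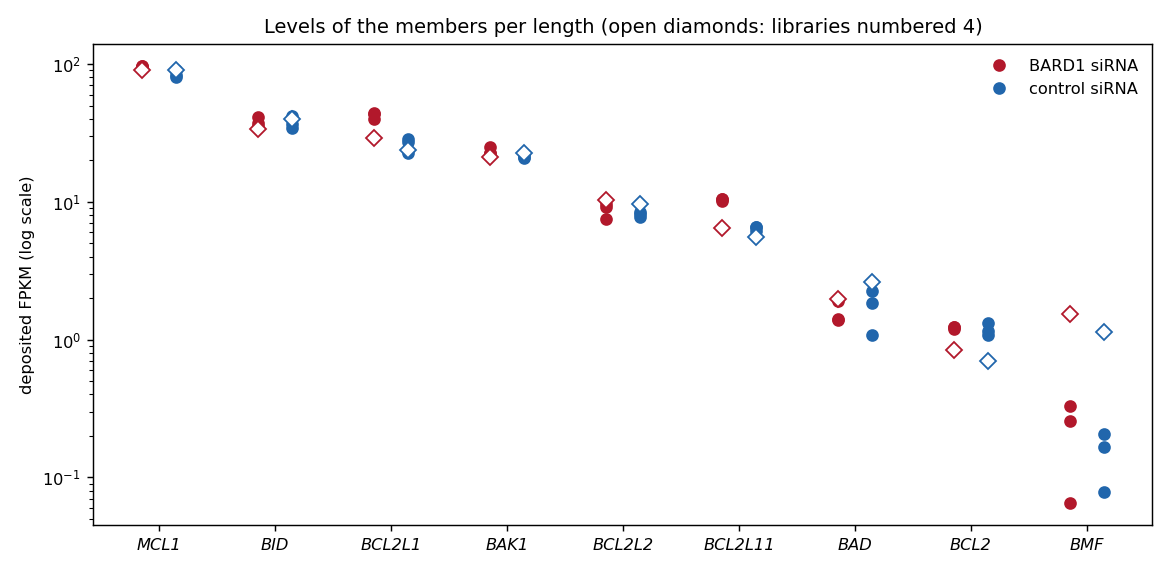
FPKM of the 9 members (one position a gene, log scale), with points for single BARD1 siRNA and control siRNA libraries. MCL1 lies highest in both groups, and BCL2L1 stands beside BID in BARD1 siRNA libraries but below it in control siRNA libraries.

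BCL2L1 encodes BCL-XL, which holds BAK, BAX and several BH3-only proteins. It lies on chromosome 20 (GRCh37, chr20:30252255-30311792, ENSG00000171552) and had 115, 108, 118 and 70.9 CPM in BARD1 siRNA libraries 1 to 4, against 75.5, 60.3, 72.7 and 58.9 CPM in control siRNA libraries 1 to 4. BARD1 siRNA libraries 1 to 3 lay above every control siRNA library, and number 4 lay inside the control range. The means were 103 ± 21.8 CPM in BARD1 siRNA libraries and 66.9 ± 8.48 CPM in control siRNA libraries (SD, n = 4 each), a log2 fold change of 0.62 (SE 0.16, 95% interval 0.26 to 0.98, edgeR adjusted p = 0.0579). BCL2L1 rose with the replicate block (0.60, SE 0.08, edgeR adjusted p = 0.00014), without both libraries numbered 4 (0.71, SE 0.07, edgeR adjusted p = 7.41e-08) and without BARD1 siRNA library 4 alone (0.77, edgeR adjusted p = 0.000481). It did not pass in the other 7 fits that left out 1 library, where the edgeR adjusted p reached 0.183. In the authors' deposited table its log2 fold change was 0.55 with an adjusted p of 0.00811. The tool behind those values is not named and its scale may differ, since it gave BARD1 -1.81, against -2.69 in edgeR.

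BCL2L11 encodes BIM, a BH3-only protein that binds every survival protein of the family and also activates the effectors. It lies on chromosome 2 (GRCh37, chr2:111876955-111926024, ENSG00000153094) and had 54.1, 53.4, 54.3 and 30.8 CPM in BARD1 siRNA libraries 1 to 4, against 33.9, 31.7, 34.1 and 26.7 CPM in control siRNA libraries 1 to 4. The pattern over libraries was that of BCL2L1: numbers 1 to 3 of BARD1 siRNA were above every control siRNA library and number 4 was inside the control range. The means were 48.1 ± 11.6 CPM in BARD1 siRNA libraries and 31.6 ± 3.44 CPM in control siRNA libraries (SD, n = 4 each), a log2 fold change of 0.61 (SE 0.18, 95% interval 0.21 to 1.01, edgeR adjusted p = 0.0871). BCL2L11 rose with the replicate block (0.58, SE 0.09, edgeR adjusted p = 0.000385), without both libraries numbered 4 (0.70, SE 0.07, edgeR adjusted p = 1.27e-07) and without BARD1 siRNA library 4 alone (0.77, edgeR adjusted p = 0.000394). It too did not pass in the other 7 fits that left out 1 library, where the edgeR adjusted p reached 0.241. The authors' deposited table gave a log2 fold change of 0.52 with an adjusted p of 0.0223.

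The promoters of BCL2L1 and BCL2L11, the members called with the block, are shown from RefSeq (GRCh38.p14) as 250 bases before to 50 after a transcription start, 5′ to 3′ on the gene's strand. In BCL2L11 (chr2:111120664-111120963, plus strand) the capitals mark a match to the FOXO motif GTAAACA, and in BCL2L1 (chr20:31723914-31724213, minus strand, 1 of its starts) they mark an ETS motif CCGGAAG followed directly by an antioxidant response element TGACNNNGC.
BCL2L11: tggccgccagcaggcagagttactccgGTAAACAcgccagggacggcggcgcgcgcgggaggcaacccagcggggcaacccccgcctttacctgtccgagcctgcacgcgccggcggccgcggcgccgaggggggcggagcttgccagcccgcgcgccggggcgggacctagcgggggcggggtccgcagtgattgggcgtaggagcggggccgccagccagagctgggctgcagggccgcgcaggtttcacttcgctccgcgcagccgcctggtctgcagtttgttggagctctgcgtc
BCL2L1: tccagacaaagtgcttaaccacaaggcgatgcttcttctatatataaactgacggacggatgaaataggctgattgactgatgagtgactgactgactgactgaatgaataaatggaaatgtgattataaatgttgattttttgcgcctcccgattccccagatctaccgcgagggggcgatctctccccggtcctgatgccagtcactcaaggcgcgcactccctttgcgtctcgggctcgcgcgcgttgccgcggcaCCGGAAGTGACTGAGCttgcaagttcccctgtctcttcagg
The FOXO match began 223 bases before the start of BCL2L11, and the window, 74.7% G and C, also held 3 matches to the GC box GGGCGG. In BCL2L1, 52.0% G and C, the ETS match began at base 10 of the transcript, and the window held no GC box. Both strands were searched for these motifs, for AP-1 (TGANTCA) and for a CRE core (TGACGT), all chosen after the promoters had been seen. Of 35116 promoters of the same length, 3.42% held the FOXO motif, 10.3% the ETS motif, 13.3% the antioxidant response element, 45% the GC box, 7.71% AP-1 and 7.98% the CRE core. The other start listed for BCL2L1 held 1 GC box match and none of the other motifs. Both starts listed for BAD, which passed in no fit, held the antioxidant response element and the CRE core. A match is a description of letters, and binding was not measured. MCL1 and BCL2L2 had no entry in the promoter table.

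MCL1, a short-lived survival protein that holds BAK and BIM, lies on chromosome 1 (GRCh37, chr1:150547032-150552066, ENSG00000143384). It had 385, 387, 389 and 333 CPM in BARD1 siRNA libraries 1 to 4, against 359, 322, 338 and 337 CPM in control siRNA libraries 1 to 4. BARD1 siRNA libraries 1 to 3 were above every control siRNA library, and number 4 was within the control range. The means were 374 ± 26.9 CPM in BARD1 siRNA libraries and 339 ± 15.4 CPM in control siRNA libraries (SD, n = 4 each), a log2 fold change of 0.14 (SE 0.08, 95% interval -0.04 to 0.32, edgeR adjusted p = 0.417). Among the settings run, MCL1 rose only without both libraries numbered 4 (0.19 ± 0.05 SE on the log2 scale, edgeR adjusted p = 0.00297). It did so there with the replicate block too (0.19, edgeR adjusted p = 0.000357). With the replicate block in all 8 libraries its edgeR adjusted p was 0.0988.

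BCL2L2 (chr14:23767999-23780968, ENSG00000129473; this and the following positions in GRCh37), which encodes the survival protein BCL-W, had 33.5, 27.7, 35.4 and 34.7 CPM in BARD1 siRNA libraries 1 to 4, against 28.6, 30.3, 30.9 and 32.8 CPM in control siRNA libraries 1 to 4. The groups overlapped across most of their range (log2 fold change 0.10, 95% interval -0.13 to 0.32, edgeR adjusted p = 0.691). Reads of BCL2L2 cannot be told apart with certainty from those of overlapping genes: BCL2L2-PABPN1, a readthrough transcript on the same strand with 2 to 47 counts per library, and PPP1R3E on the opposite strand with 124 to 391 counts. BCL2, the survival gene first found at a lymphoma translocation (chr18:60790579-60987361, ENSG00000171791), had 9.43, 9.23, 9.40 and 5.83 CPM in BARD1 siRNA libraries 1 to 4, against 8.77, 8.27, 10.1 and 4.98 CPM in control siRNA libraries 1 to 4. Its values split by library number and not by siRNA, with number 4 lowest in each group (log2 fold change by siRNA 0.08, 95% interval -0.46 to 0.62, edgeR adjusted p = 0.922).

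BAK1 (chr6:33540329-33548019, ENSG00000030110) encodes BAK, the effector that sits in the mitochondrial membrane, and has a pseudogene, BAK1P1, with which reads could be split. It had 53.9, 49.9, 49.0 and 41.9 CPM in BARD1 siRNA libraries 1 to 4, against 47.9, 45.6, 46.1 and 46.0 CPM in control siRNA libraries 1 to 4. Numbers 1 to 3 of BARD1 siRNA were above the control siRNA libraries and number 4 was below them all. The log2 fold change was 0.07 (95% interval -0.13 to 0.27, edgeR adjusted p = 0.769) and 0.13 without both libraries numbered 4 (edgeR adjusted p = 0.179). Considering numbers 1 to 3 alone, the siRNA groups did not overlap for BCL2L1, MCL1, BAK1 and BCL2L11, 4 of 9 members, beside 42.1% of all genes tested, and with all 8 libraries they did so for 0 of 9 members, beside 13% of all genes.

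BID (chr22:18216906-18257536, ENSG00000015475) encodes the BH3-only protein that caspase-8 cuts to link death receptors to mitochondria. Its values, 95.2, 106, 90.8 and 79.3 CPM in BARD1 siRNA libraries 1 to 4 and 87.0, 106, 94.2 and 93.7 CPM in control siRNA libraries 1 to 4, overlapped, with BARD1 siRNA library 4 the lowest (log2 fold change -0.04, 95% interval -0.27 to 0.19, edgeR adjusted p = 0.906). BAD (chr11:64037302-64052176, ENSG00000002330), a BH3-only protein that survival kinases phosphorylate and that 14-3-3 proteins then hold, had 1.66, 1.66, 2.25 and 2.13 CPM in BARD1 siRNA libraries 1 to 4, against 2.63, 2.17, 1.29 and 2.87 CPM in control siRNA libraries 1 to 4. These values rest on 41 to 90 reads per library, and the groups overlapped (log2 fold change -0.22, 95% interval -0.88 to 0.44, edgeR adjusted p = 0.784). BAD overlaps GPR137 on the opposite strand, which had 550 to 1043 counts per library, and the strand setting of the counting is not known here.

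BMF (chr15:40380091-40401093, ENSG00000104081), a BH3-only protein that the dynein light chain DYNLL2 holds at the cytoskeleton, differed most by library number. It had 1.57, 1.24, 0.311 and 6.68 CPM in BARD1 siRNA libraries 1 to 4, against 0.988, 0.793, 0.377 and 5.01 CPM in control siRNA libraries 1 to 4, from 9 to 197 reads per library. Both libraries numbered 4 lay above the other 6, while the siRNA groups overlapped throughout (log2 fold change by siRNA 0.44, 95% interval -1.67 to 2.54, edgeR adjusted p = 0.883). With the replicate block the interval was -0.20 to 1.05 (edgeR adjusted p = 0.328).

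**Figure D3:**
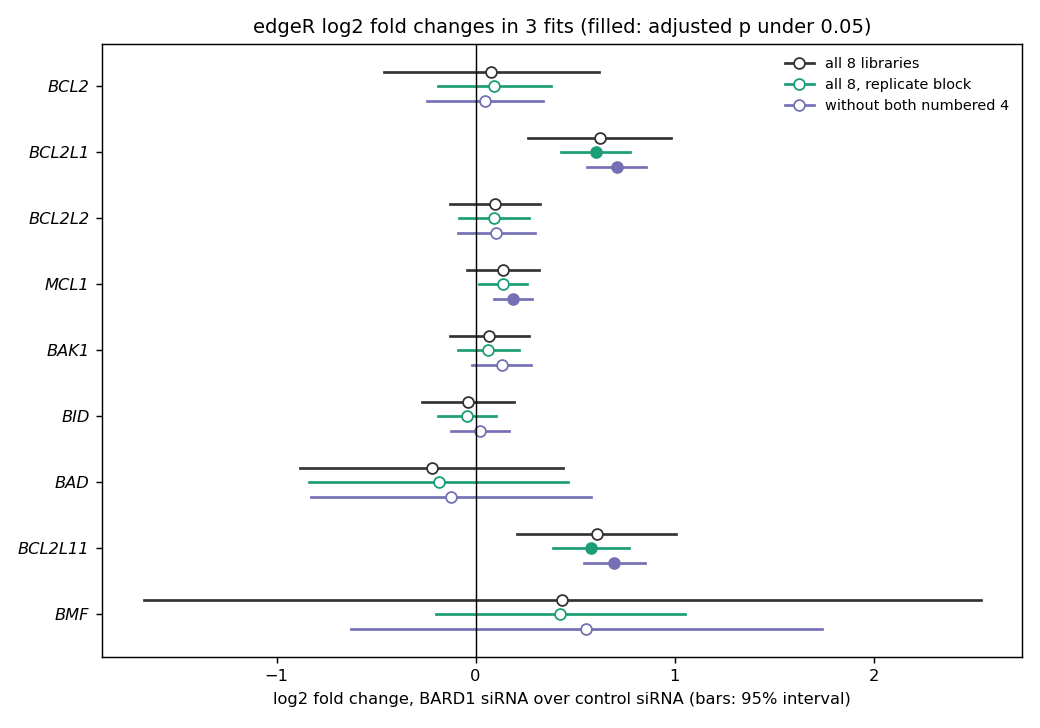
Log2 fold change of BARD1 siRNA over control siRNA for the 9 members with 95% intervals, in the edgeR fit of all 8 libraries, with the replicate block, and without both libraries numbered 4. The intervals of BCL2L1 and BCL2L11 lie above 0 in all 3 fits, and that of BMF is the widest in the fit of all 8.

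Set between the libraries numbered 4 and the other 6, with a term for the siRNA, 4 of 9 members differed (44.4%, beside 46.2% of all genes tested, 22.1% higher and 24.1% lower). BMF rose 6.67-fold in the libraries numbered 4 (log2 fold change 2.74, SE 0.38, edgeR adjusted p = 1.73e-05). Of the genes tested, 28 (0.193%) were called with a log2 fold change at least as high. BCL2 (-0.77, edgeR adjusted p = 0.000623), BCL2L11 (-0.56, edgeR adjusted p = 0.000188) and BCL2L1 (-0.46, edgeR adjusted p = 0.000989) fell there. The fall of BCL2L1 was larger with BARD1 siRNA, where library 4 had 70.9 CPM against 108 to 118 CPM in libraries 1 to 3. Control siRNA library 4 had 58.9 CPM of BCL2L1, beside 60.3 CPM in control siRNA library 2. For BCL2, BCL2L11 and BMF both libraries numbered 4 were outside the range of the other 6, 3 of 9 members, beside 42.8% of all genes. These p-values treat both libraries numbered 4 as independent, though they deviated together, and do not measure the spread between replicate numbers. The labels do not say what sets number 4 apart, and the higher share of mitochondrial reads given above moves with it; its part in these differences was not tested.

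In same-numbered pairs, the difference of BARD1 siRNA minus control siRNA varied by number. For BCL2L1 the log2 differences of pairs 1 to 4 were 0.61, 0.84, 0.69 and 0.27, and for BCL2L11 they were 0.68, 0.75, 0.67 and 0.21, with pair 4 the lowest for both. MCL1, which did not pass in all 8 libraries, gave 0.10, 0.27, 0.20 and -0.02, and BAK1, which passed in no fit by siRNA, gave 0.17, 0.13, 0.09 and -0.13. For BCL2 pair 4 was the highest, at 0.11, 0.16, -0.10 and 0.23. BARD1 was also less reduced there, at 7.59 CPM in BARD1 siRNA library 4 against 20.8 CPM in control siRNA library 4. With 1 library of each siRNA in that pair the difference between pairs has no test.

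**Figure D4:**
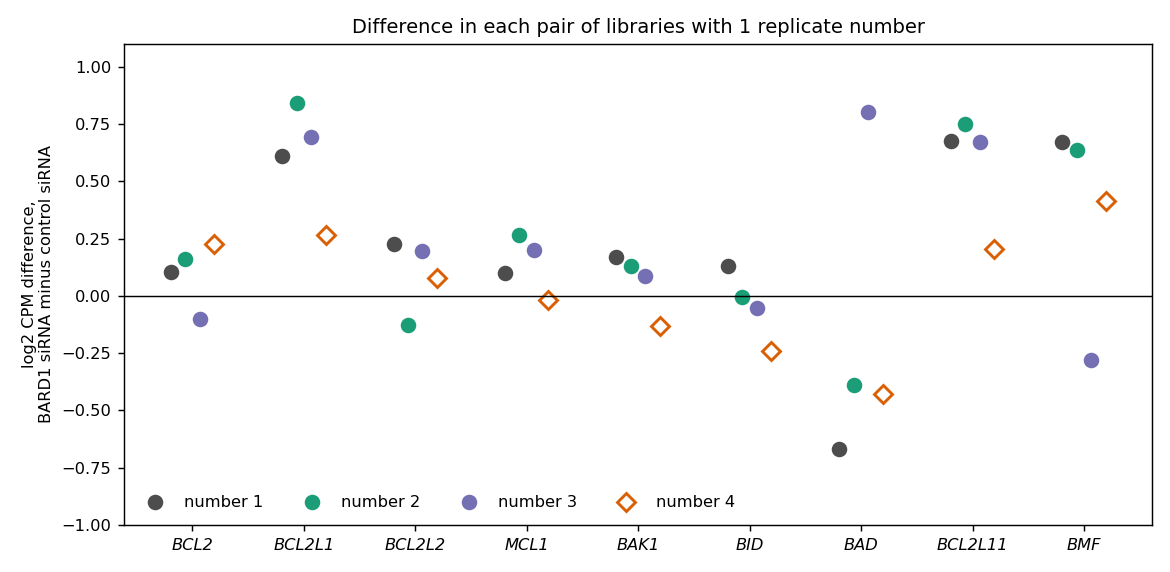
Log2 difference of BARD1 siRNA minus control siRNA in each same-numbered pair for the 9 members, with number 4 as open diamonds. All 4 pairs of BCL2L1 and BCL2L11 are above 0, with pair 4 the lowest at 0.27 and 0.21.

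Over the 8 libraries, which share the siRNA groups and the split of number 4, Pearson's r of log2(CPM + 1) between members ran from -0.903 (BCL2 and BMF) to 0.978 (BCL2L1 and BCL2L11), with a median of 0.107 over all 36 pairs. It was 0.951 between BCL2L1 and MCL1, 0.918 between BCL2L11 and MCL1, and 0.758 to 0.817 between BAK1 and these 3 genes, values that follow from the levels given above and add nothing independent of them. Among 9945 genes with a mean of at least 5 CPM, the closest to BCL2L1 were PTX3 (r = 0.994), a secreted pentraxin, and ABL2 (r = 0.991), a tyrosine kinase. Closest to BCL2L11 were SPATA2 and MACF1 (r = 0.997 each), to MCL1 GAREM (r = 0.987) and LIMD1 (r = 0.984), and to BCL2L2 DMAP1 (r = 0.966) and NAT9 (r = 0.963). Of these 8 genes PTX3 alone passed the threshold by siRNA (log2 fold change 1.19, edgeR adjusted p = 0.0404).

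The word ATACAGAA, which earlier work on these data had met in 3′ UTRs of genes lower with BARD1 siRNA, was looked for in the members (GENCODE 29, GRCh38). It was present in BCL2, MCL1 and BMF, 3 of 9 members, and a form without its first or last base in BAK1 and BCL2L11. The 3′ UTRs of the members ran from 379 bases (BAD) to 5279 bases (BCL2), with 2824 in MCL1 and 3897 in BMF. A longer 3′ UTR has more places for a word, and length was not accounted for in this or the following shares. Among tested genes with a 3′ UTR, 6.04% held the full word, and 17.6% of those 729 genes fell, against 2.04% of the 9161 genes with neither form. Without both libraries numbered 4 these shares were 36.95% and 15.66%. Since the word was first met in genes lower in these data, the shares restate that and are no independent evidence. The word is in capitals in the sites of MCL1 (chr1:150576502-150576531, minus strand) and BMF (chr15:40090704-40090733, minus strand).
MCL1: ttctagagtgtATACAGAAcgaattgatgt
BMF: tacctagtgggATACAGAAgaagccaggac
None of BCL2, MCL1 and BMF fell in edgeR with all 8 libraries, at log2 fold changes of 0.08, 0.14 and 0.44, and MCL1 rose without both libraries numbered 4. The siRNA's sequence was not known here, and the word's part in any member's level was not tested.

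Other genes of the apoptosis pathway were counted by list. Of 11 tested genes of the rest of the BCL2 family 0 passed in edgeR with all 8 libraries (median log2 fold change -0.0099, beside 0.0088 over all genes), beside 5.05% of all genes. With the replicate block 4 of 11 rose, beside 11% of all genes higher and 23.6% called in either direction. The BH3-only gene HRK had 1.77, 1.53, 1.80 and 1.56 CPM in BARD1 siRNA libraries 1 to 4, against 0.288, 0.501, 0.912 and 0.990 CPM in control siRNA libraries 1 to 4, from 7 to 63 reads. The groups did not overlap, as held for 13% of all genes tested. The log2 fold change was 1.28 (SE 0.39), with an edgeR adjusted p of 0.1001 in all 8 libraries and 0.0275 with the replicate block (DESeq2 adjusted p = 0.0167). BBC3, which encodes the p53 target PUMA, had 10.2, 7.38, 10.4 and 15.6 CPM in BARD1 siRNA libraries 1 to 4, against 6.26, 6.93, 4.24 and 8.40 CPM in control siRNA libraries 1 to 4 (log2 fold change 0.75, edgeR adjusted p = 0.150, and 0.00627 with the replicate block). PMAIP1, the BH3-only gene for NOXA, and BNIP3L, a mitochondrial autophagy receptor, were also called with the block (0.48 and 0.24), and both are named after their values were seen.

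Of 11 apoptosome and caspase genes 0 passed, beside 5.05% of all genes (median log2 fold change -0.0395), and CASP6, an executioner caspase, fell with the replicate block (-0.66, edgeR adjusted p = 0.00549; 0.0887 in all 8 libraries without it). HTRA2, a mitochondrial protease that opposes the inhibitor of apoptosis proteins, had a log2 fold change of -0.23 (edgeR adjusted p = 0.253). Of 6 tested inhibitor of apoptosis genes 1 rose and 0 fell (median 0.45), beside 1.82% of all genes higher and 3.22% lower. XIAP, which blocks caspases directly, averaged 81.9 ± 14.5 CPM in BARD1 siRNA libraries and 53.6 ± 2.71 CPM in control siRNA libraries (SD, n = 4 each; log2 fold change 0.61, edgeR adjusted p = 0.0268), and BIRC6, a large ubiquitin ligase of the same family, was at 0.56 (edgeR adjusted p = 0.125, and 0.0018 with the replicate block).

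Of 12 tested death receptor genes 1 rose and 1 fell (median 0.14), and the same counts held for 18 genes for partners and turnover of the members (median 0.0956), beside 1.82% of all genes higher and 3.22% lower. TNFRSF10D, a decoy receptor for the death ligand TRAIL, rose to 86.3 ± 9.64 CPM in BARD1 siRNA libraries, against 59.4 ± 2.97 CPM in control siRNA libraries (SD, n = 4 each; log2 fold change 0.54, edgeR adjusted p = 0.0152). RIPK1, a kinase of death receptor complexes, fell to 47.7 ± 1.40 CPM in BARD1 siRNA libraries, against 61.8 ± 2.01 CPM in control siRNA libraries (SD, n = 4 each; log2 fold change -0.37, edgeR adjusted p = 0.0168). Among the partner genes, BTRC, a substrate receptor of ubiquitin ligases, rose by 0.38 on the log2 scale (edgeR adjusted p = 0.037) and DYNLL1, the dynein light chain that binds BIM, fell by 0.43 (edgeR adjusted p = 0.0481). Leaving out single libraries raised the edgeR adjusted p to at most 0.108 for XIAP, 0.067 for TNFRSF10D, 0.077 for RIPK1, 0.138 for BTRC and 0.171 for DYNLL1, so XIAP, TNFRSF10D, RIPK1 and DYNLL1 kept their call in 2 of 8 of these fits and BTRC in 1 of 8.

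**Figure D5:**
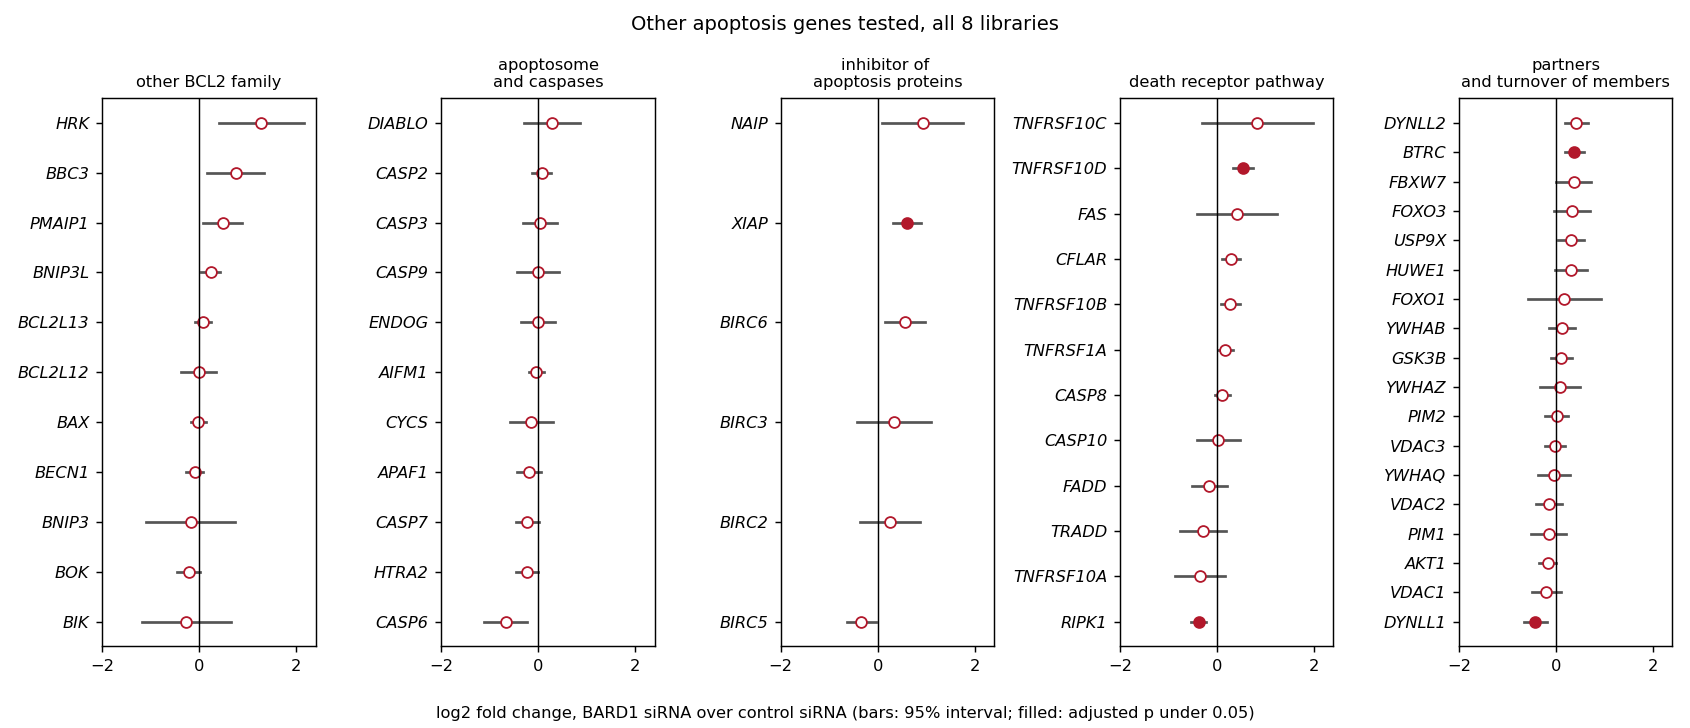
Log2 fold change of BARD1 siRNA over control siRNA for the tested genes of 5 further apoptosis lists (one panel a list) with 95% intervals from edgeR over all 8 libraries, filled where the adjusted p is under 0.05. XIAP, TNFRSF10D and BTRC are filled above 0, and RIPK1 and DYNLL1 below 0.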

How the data were processed

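RNA of 4 BARD1 siRNA and 4 control siRNA libraries was measured. The authors deposited raw whole-number counts for each gene, made with fastp, HISAT2 (version 2.0.5) and featureCounts on GRCh37 (hg19), per the submitters' processing notes; the annotation release and strand setting are not given in the sources used here. Deposited FPKM values equalled count over length and column total (largest relative difference 5e-12). The authors' deposited log2 fold changes and p-values come from an unnamed tool, and 8 deposited columns of normalized signal values were not used. Names of 26 genes turned into dates were restored, and 22217 rows naming no gene, with no reads, were left out.

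Counts were tested in edgeR (version 4.0.16, R 4.3.3; filterByExpr, TMM, quasi-likelihood test, two-sided, Benjamini-Hochberg over all genes tested, threshold 0.05), after tests on simulated data. The simulated counts had less spread than these data and no split by library number. They tested the code and not how the fit behaves on these data. Standard errors are those implied by the F statistic. A floor of 3 counts is taken as the limit of detection and covers counting error only. Same-numbered libraries deviated together (correlations 0.506, 0.502, 0.605 and 0.859 for numbers 1 to 4, over 10146 genes), so numbers were taken to pair libraries. Unlike numbers among 1 to 3 gave 0.378 to 0.522. BARD1 siRNA library 2 correlated at 0.522 with control siRNA library 1 and at 0.502 with control siRNA library 2. Deviations were taken from the mean of all 4 libraries of a group, number 4 included. The values for numbers 1 to 3 thus do not show a pairing, which rests mainly on number 4. The labels do not say what a number marks.

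Alternatives were the replicate block, RLE and upper-quartile scaling, no filter, DESeq2 (version 1.42.0) and leaving out each library. Both libraries numbered 4 were also left out, without and with the block. For levels, TPM was used in place of FPKM. Named were all members, BARD1, of each further list the 2 genes with the smallest p and any called, and the 2 genes most like each of the 4 members with the smallest p. The value of 1 marker gene is not reported here. Members and lists were chosen with earlier results of these data known.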

Additional observations from a re-analysis of the deposited data

Results flagged for a closer look

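Dixon's criterion set 1 library apart from its group in 14 of the 56 groups of 4 libraries looked at; by chance about 1 in 20 would be (2.8 of 56). Each was number 4. The groups include genes chosen for their likeness to a member over these same libraries, which repeat that member's pattern. The groups are thus not independent, and 14 beside 2.8 is no test. In BARD1 siRNA libraries, number 4 had 5.83 CPM of BCL2 (others 9.23 to 9.43), 333 CPM of MCL1 (385 to 389) and 30.8 CPM of BCL2L11 (53.4 to 54.3). In control siRNA libraries, number 4 had 5.01 CPM of BMF (others 0.377 to 0.988). BARD1 siRNA library 4 also had 71.9 CPM of TNFRSF10D (others 90.2 to 91.8) and 42.8 CPM of BTRC (48.6 to 49.1).

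Among the genes most like a member, BARD1 siRNA library 4 had 16.3 CPM of PTX3 (others 37.4 to 41.6), 48.7 CPM of ABL2 (78.6 to 84.7), 30.1 CPM of SPATA2 (52.4 to 53.3) and 194 CPM of MACF1 (512 to 538). Control siRNA library 4 had 20.8 CPM of BARD1 (others 26.9 to 28.0), 10.1 CPM of CASP6 (6.67 to 7.10), 119.6 CPM of BIRC6 (136.9 to 139.3) and 55.0 CPM of TNFRSF10D (60.6 to 61.4). The part of the library number in these values was not tested.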

How the results depend on the processing

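Of all genes tested, 733 changed with all 8 libraries, 3430 with the replicate block, 1549 with DESeq2, 4428 without both libraries numbered 4 and 178 to 2506 without single libraries. Members called numbered 0 with all 8 libraries, 2 with the replicate block, 2 with upper-quartile scaling, 1 with no filter, 2 with DESeq2, 3 without both libraries numbered 4, and 0 to 2 without single libraries. Counts for the rest of the BCL2 family were 0 with all 8 libraries, 4 with the block, 1 with DESeq2, 5 without both numbered 4 and 0 to 1 without single libraries; for apoptosome and caspases 0, 1, 1, 1 and 0 to 1; for inhibitors of apoptosis 1, 4, 2, 5 and 0 to 3. Death receptor genes numbered 2, 6 with the block, 4 with upper-quartile scaling, 4 with DESeq2, 8 without both numbered 4 and 0 to 6 without single libraries. Partner genes numbered 2, 8 with the block, 1 with RLE, 0 with no filter, 12 without both numbered 4 and 0 to 6 without single libraries. With all 8 libraries, with the block and without both numbered 4, these lists held 11, 11, 6, 12 and 18 tested genes in the order given. Of all genes, 5.05%, 23.6% and 30.4% were called in those fits. The log2 fold change reversed sign for BCL2 (-0.097 to 0.22 without single libraries), BID (-0.11 to 0.029, and 0.023 without both numbered 4) and BMF (-0.79 to 1.77). Upper-quartile scaling put 46.8% of calls higher, against 36.2% with TMM. The cause of these moves was not tested. BMF, BAD and HRK rest on few reads.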

Other observations

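Other apoptosis genes also differed between the libraries numbered 4 and the other 6, and those named here were chosen after their values were seen. As above, the p-values of this comparison do not measure the spread between replicate numbers. FAS, a death receptor, was lower in the libraries numbered 4 (log2 fold change -1.32, edgeR adjusted p = 7.61e-06), as were the inhibitor of apoptosis genes BIRC3 (-1.22, edgeR adjusted p = 1.6e-06) and BIRC2 (-0.96, edgeR adjusted p = 1.77e-06). TNFRSF10C, a TRAIL decoy receptor, was higher (1.41, edgeR adjusted p = 0.00183). By list, 1 of 18 partner genes rose and 14 fell in the libraries numbered 4, 0 of 6 inhibitor of apoptosis genes rose and 4 fell, 3 of 12 death receptor genes rose and 4 fell, 2 of 11 apoptosome and caspase genes rose and 2 fell, and 1 of 11 genes of the rest of the BCL2 family rose and 2 fell. Of all genes tested 22.1% rose and 24.1% fell there.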
